A study of Homo sapiens with 6 samples.

Results

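The 10 genes of the heat shock system of the cytosol and the mitochondrion examined here are HSF1, HSPA1A, HSPA8, HSPH1, DNAJB1, HSP90AA1, HSP90AB1, HSPB1, HSPD1 and HSPE1. They were chosen by gene symbol and make up 10 of the 23228 gene symbols counted, and all 10 passed the filter on low counts that 14504 genes passed. The libraries came from U2OS, an established human osteosarcoma line, harvested 48 hours after lipid transfection with ALKBH5 siRNA (3 libraries) or with scrambled siRNA (3 libraries). ALKBH5 takes the methyl group off N6-methyladenosine in RNA, and the comparison asks which messages differ once its siRNA has been given. Both groups carried an siRNA and the transfection reagent, the line had no other alteration named in the labels, and neither an untransfected culture nor a rescue with ALKBH5 was analysed here. What follows from loss of ALKBH5 and what follows from the siRNA by another route can therefore not be told apart.

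Heat shock proteins are molecular chaperones, which hold unfolded proteins in solution and help them to fold. HSF1 is the transcription factor that switches their genes on when unfolded protein accumulates, by binding arrays of the motif GAA in alternating orientation, called heat shock elements. In the cytosol the HSP70 proteins take up client proteins with the help of J-domain partners, and the HSP90 proteins finish the folding of many kinases and receptors. In the mitochondrion HSP60 and its lid HSP10 form a folding chamber, and cancer cells commonly hold high levels of several of these proteins.

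Reads in genes numbered 19748583 to 19919797 in the ALKBH5 siRNA libraries and 18817181 to 23410007 in the scrambled libraries. The targeted gene was covered by 380, 307 and 306 reads in the ALKBH5 siRNA libraries and by 3310, 3073 and 2733 reads in the scrambled libraries, a log2 fold change of −3.06 (SE 0.10, adjusted p = 1.6e-09 in edgeR's quasi-likelihood test). Uniquely placed reads that the counting assigned to no gene were 17.9% ± 0.66 after ALKBH5 siRNA and 15.3% ± 0.23 after scrambled siRNA (SD, n = 3 each). What part this has in the results below was not tested. Of the bone lineage markers, COL1A1 stood at 2017 and 1526 CPM and SPARC at 1428 and 2030 CPM (means of ALKBH5 siRNA and scrambled libraries). In the same order RUNX2 averaged 42.0 and 25.3 CPM, SPP1 16.8 and 15.4 CPM, and ALPL 2.49 and 3.97 CPM. COL1A2 averaged only 1.12 and 4.4 CPM, with scrambled replicate 2 at 9.70 CPM. IBSP had no read, and SP7 and BGLAP averaged under 0.05 CPM. The summed level of leukocyte markers lay between 4.26 and 5.02 CPM and between 1.87 and 2.82 CPM in the same order, with CD3E at 0 in every library. LAPTM5, at 3.67 and 1.06 CPM on average, was called higher and PTPRC, at 0.619 and 1.31 CPM, lower. Epithelial markers summed to between 5.63 and 10 CPM and between 7.64 and 9.49 CPM, and endothelial markers to between 2.36 and 3.58 CPM and between 6.85 and 9.61 CPM. Of 6 tested bone lineage markers 2 were called higher and 2 lower. The counts were 1 and 1 of 4 epithelial, 1 and 1 of 2 leukocyte, and 0 and 2 of 4 endothelial markers tested. Over all tested genes 30.8% were called higher and 30.8% lower. Levels are CPM, the count of a gene relative to the total of reads in genes, scaled between libraries by TMM, and a gene is called changed at an adjusted p under 0.05.

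Of the 10 genes, 9 fell together, by 1.61-fold to 2.68-fold, and HSPB1 alone did not pass the test. The share of all tested genes that fell was 30.8%, an equal 30.8% rose, and of the 10 heat shock genes 0 rose in edgeR, DESeq2 or limma-voom, nor did any at an unadjusted p under 0.05. The median log2 fold change of the 10 was −0.94, against 0.01 over all tested genes. Of the 10 genes 3 fell by 2-fold or more (HSP90AA1, HSP90AB1 and HSPE1), as did 9.34% of all tested genes. The libraries of both groups stood apart for 9 of the 10, and 67.4% of all tested genes showed such a gap in either direction. In a bulk measurement, fewer cells that express a gene and less of its RNA per cell cannot be told apart.

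**Figure D1:**
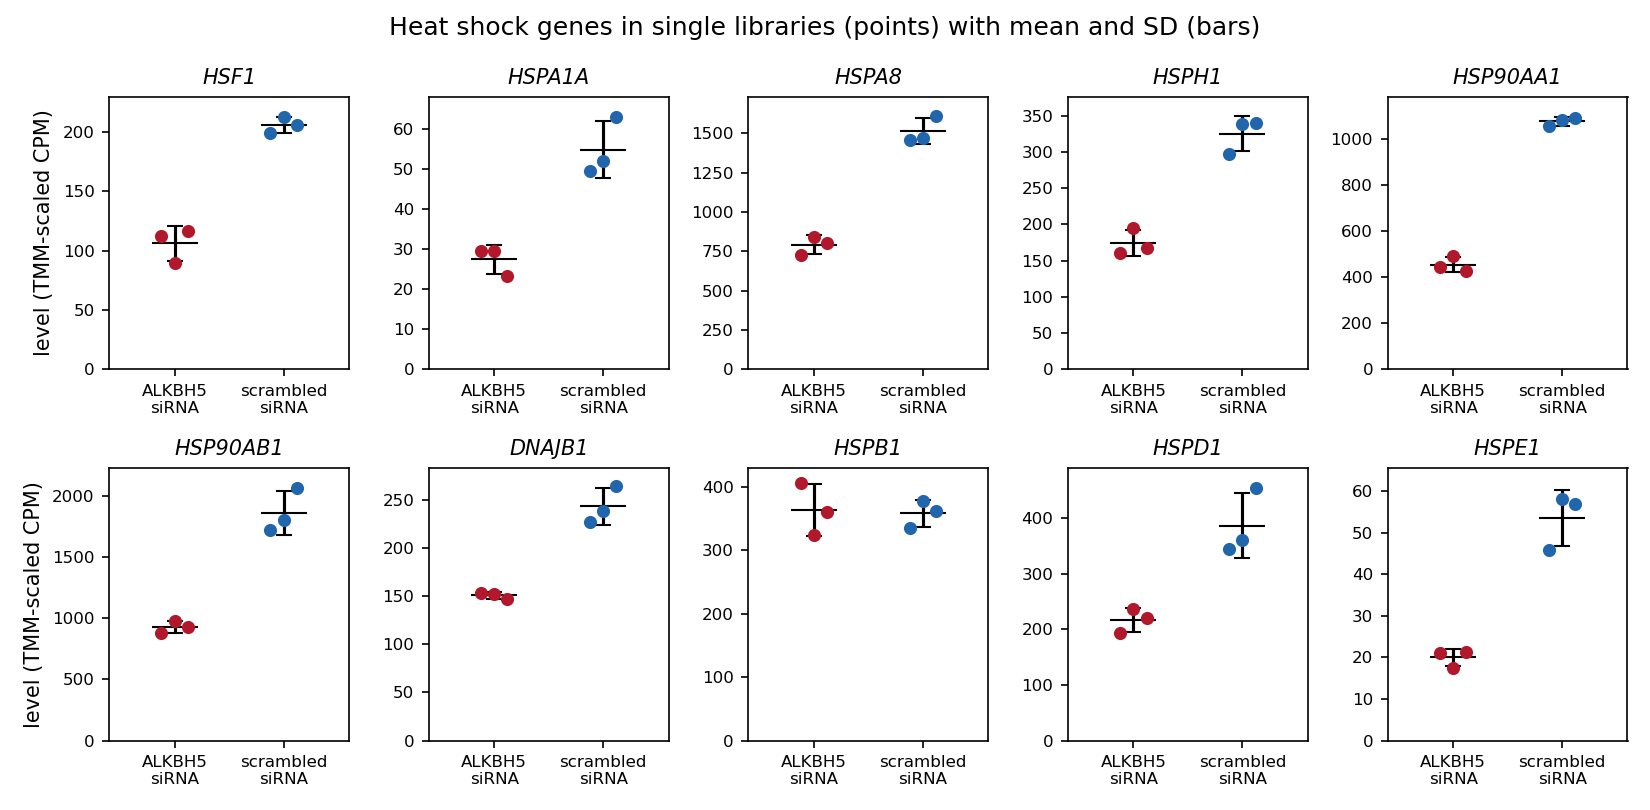
Level of each gene in TMM-scaled CPM in the 3 ALKBH5 siRNA libraries (red) and the 3 scrambled siRNA libraries (blue), with mean and SD in black; every axis starts at 0. The red points lie below all blue points in each panel except that of HSPB1, where the ALKBH5 siRNA libraries span 324 to 406 CPM and the scrambled ones lie within that span.

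Promoter sequences are printed for HSPA8, HSP90AA1 and HSPD1, which fell, and for HSPB1, which did not pass the test. The printed genes that fell all hold an array of 3 alternating units. For HSP90AA1 and HSPD1 the other window, not printed, held no match. The choice does not represent all genes that fell: HSPA1A and DNAJB1 lacked such an array, and HSPH1 and HSPE1 lacked any match. The sequences are RefSeq windows from 250 bases before to 50 bases after an annotated start, on GRCh38.p14, read along the strand of the gene. The symbols of 9 of the 10 genes were found there. Capitals mark GAANNTTC or TTCNNGAA, the shortest element of 2 alternating units, searched on both strands. Each of these motifs reads the same on both strands, and matches that overlap run together in capitals.
HSPA8, chr11:123062087-123062386, minus strand: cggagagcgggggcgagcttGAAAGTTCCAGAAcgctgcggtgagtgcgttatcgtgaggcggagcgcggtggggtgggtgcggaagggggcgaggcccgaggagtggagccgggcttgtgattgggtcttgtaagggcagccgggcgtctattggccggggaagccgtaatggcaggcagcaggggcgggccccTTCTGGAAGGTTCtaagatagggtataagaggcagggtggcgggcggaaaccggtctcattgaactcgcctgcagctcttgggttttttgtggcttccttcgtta
HSP90AA1, the second of 2 windows, chr14:102086995-102087294, minus strand: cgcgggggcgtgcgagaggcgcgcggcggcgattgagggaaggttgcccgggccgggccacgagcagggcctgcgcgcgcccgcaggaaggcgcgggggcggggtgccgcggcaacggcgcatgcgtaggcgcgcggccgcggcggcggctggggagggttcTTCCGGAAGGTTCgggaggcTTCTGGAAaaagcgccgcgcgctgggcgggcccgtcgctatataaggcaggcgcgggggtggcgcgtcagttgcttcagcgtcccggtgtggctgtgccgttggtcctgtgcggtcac
HSPD1, the second of 2 windows, chr2:197499791-197500090, minus strand: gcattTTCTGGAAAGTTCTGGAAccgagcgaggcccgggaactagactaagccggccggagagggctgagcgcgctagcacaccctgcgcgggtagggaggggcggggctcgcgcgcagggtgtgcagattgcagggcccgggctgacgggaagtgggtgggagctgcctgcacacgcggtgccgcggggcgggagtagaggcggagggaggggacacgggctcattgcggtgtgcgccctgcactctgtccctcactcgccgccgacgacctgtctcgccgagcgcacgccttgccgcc
HSPB1, chr7:76302423-76302722, plus strand: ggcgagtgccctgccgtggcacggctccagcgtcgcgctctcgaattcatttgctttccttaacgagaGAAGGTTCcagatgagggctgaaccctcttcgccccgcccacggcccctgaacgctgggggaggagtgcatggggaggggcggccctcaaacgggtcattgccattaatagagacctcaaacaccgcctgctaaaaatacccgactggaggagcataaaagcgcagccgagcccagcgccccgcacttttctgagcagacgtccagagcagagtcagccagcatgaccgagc

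At least 1 element of 2 units was found in a window of 7 of the 9 genes, namely HSPA1A, HSPA8, HSP90AA1, HSP90AB1, DNAJB1, HSPB1 and HSPD1. Over all genes with a window, 16.2% held one. An array of 3 alternating units, as GAANNTTCNNGAA or TTCNNGAANNTTC, was present in HSPA8, HSP90AA1, HSP90AB1 and HSPD1, and in 0.608% of all genes. HSPB1 held a single element of 2 units, whose first base lies at position −182 from its start, and HSPA1A, which fell, likewise held a single one, at −106. No match lay in the windows of HSPH1 and HSPE1, which says only that these letters are not in these windows. The HSPD1 start of the printed window lies 539 bases from the HSPE1 start. The array of HSPD1, whose first base is at −245, lies between these starts and outside the HSPE1 window. From the other annotated start of HSPD1, HSPD1 and HSPE1 run in opposite directions 105 bases apart, and these windows share 204 bases (chr2:197500225-197500428). The counts in the 250 bases before the start were also 7 and 4 genes. These matches describe the sequence and do not show binding.

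**Figure D2:**
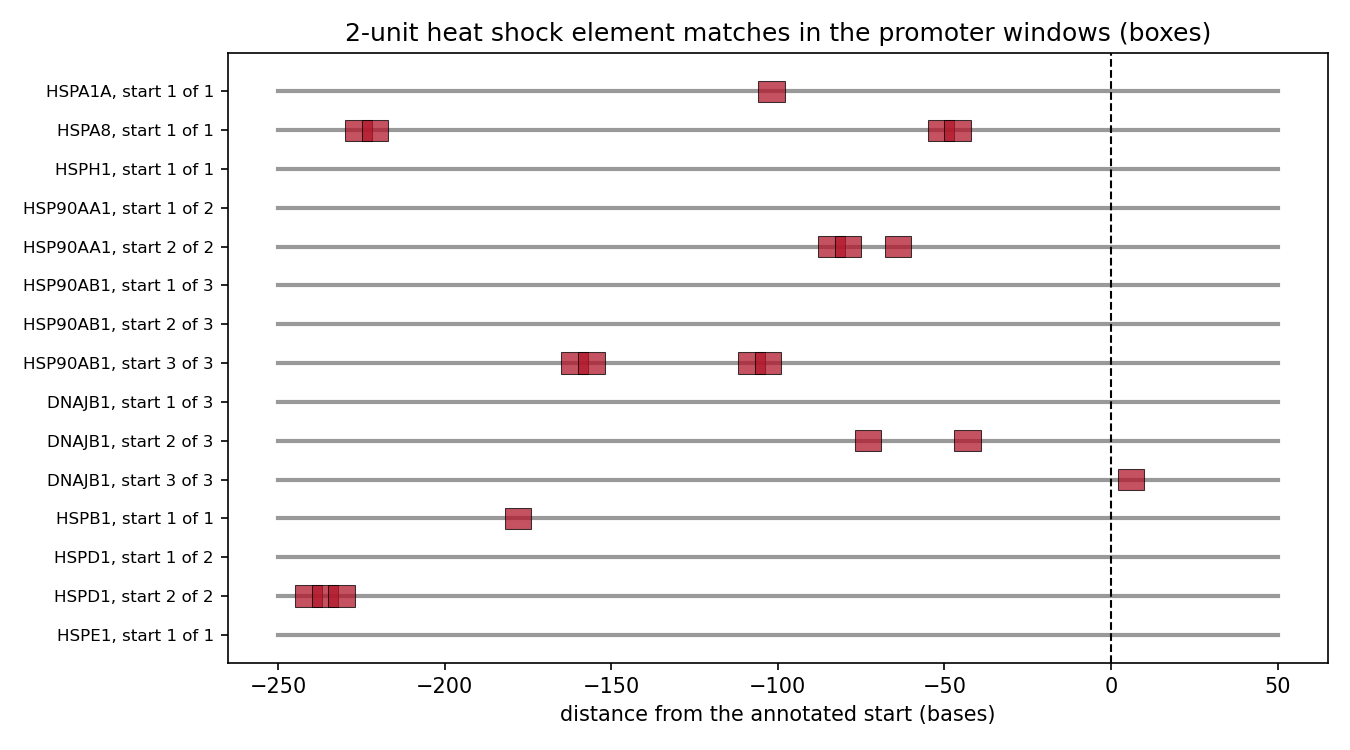
Matches to the 2-unit heat shock element (boxes) along each promoter window, by distance in bases from the annotated start (dashed line), with 1 row per annotated start. HSPA8, HSP90AA1, HSP90AB1 and HSPD1 carry overlapping boxes, which mark 3 or more alternating units. HSPB1 carries 1 box at −182, and HSPA1A, which fell, carries 1 at −106.

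The regulator HSF1 was itself lower. It stood at 112, 89.5 and 117 CPM in the ALKBH5 siRNA libraries, against 199, 213 and 206 CPM in the scrambled libraries. The highest ALKBH5 siRNA library was well below the lowest scrambled one. The difference was 1.94-fold (log2 fold change −0.96, SE 0.10, edgeR adjusted p = 4.7e-06). HSF1 overlaps DGAT1, which runs on the opposite strand, in GENCODE 29, and 4.30% of the 50-base stretches of its transcript also occur in a transcript of another gene.

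HSPA8, the constitutive cytosolic HSP70 that also strips clathrin from vesicles, had 727, 844 and 805 CPM in the ALKBH5 siRNA libraries, against 1461, 1470 and 1608 CPM in the scrambled libraries. The groups were separated by a wide gap and libraries of a group lay close together. Its level was 1.91-fold lower (a log2 fold change of −0.93 with SE 0.08, adjusted p = 1.1e-06). HSPA1A, the stress-inducible HSP70, had 29.5, 29.6 and 23.4 CPM after ALKBH5 siRNA and 49.6, 52.1 and 62.9 CPM after scrambled siRNA. All scrambled libraries were above all ALKBH5 siRNA libraries, and the fall was 1.99-fold (log2 fold change −0.996, SE 0.12, adjusted p = 2.4e-05). HSPA1A is nearly identical to its neighbour HSPA1B: 72.6% of the 50-base stretches of its transcript occur in HSPA1B as well, so its counts rest on the remaining stretches and are uncertain. HSPA1B had 19.8, 20.8 and 18.1 CPM after ALKBH5 siRNA, against 41.2, 41.8 and 49.3 CPM after scrambled siRNA, a similar gap between the groups (log2 fold change −1.17, SE 0.11, adjusted p = 2.1e-06). HSPA6, the HSP70 gene that human cells express almost only under stress, had 4, 2 and 8 reads after ALKBH5 siRNA and 4, 0 and 5 reads after scrambled siRNA, too few for the test.

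HSPH1 and DNAJB1, which work with HSP70, also fell. HSPH1, the HSP110 protein that exchanges the nucleotide of HSP70 and with it dissolves aggregates, had 161, 195 and 167 CPM in the ALKBH5 siRNA libraries, against 297, 338 and 339 CPM in the scrambled libraries. No library of either group reached the range of the other, and the level was 1.87-fold lower (a log2 fold change of −0.90 with SE 0.09, adjusted p = 4.4e-06). DNAJB1, the J-domain protein that hands clients to HSP70 and starts its ATP cycle, had 154, 153 and 147 CPM after ALKBH5 siRNA and 228, 238 and 264 CPM after scrambled siRNA. Its ALKBH5 siRNA libraries were nearly equal to each other. The fall, 1.61-fold (log2 fold change −0.69, SE 0.08, adjusted p = 1.1e-05), was the smallest among the 9 genes that fell.

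Both cytosolic HSP90 genes were lower. HSP90AA1, the more stress-responsive form, had 444, 492 and 429 CPM in the ALKBH5 siRNA libraries, against 1056, 1083 and 1091 CPM in the scrambled libraries. Every scrambled library held more than double the level of any ALKBH5 siRNA library, and the fall was 2.37-fold (log2 fold change −1.24, SE 0.08, adjusted p = 7.6e-08). HSP90AB1, the constitutive form, had 882, 978 and 927 CPM after ALKBH5 siRNA, against 1721, 1807 and 2066 CPM after scrambled siRNA. Here the scrambled libraries spread more than the ALKBH5 siRNA libraries without reaching them, and the fall was 2.01-fold (log2 fold change −1.01, SE 0.08, adjusted p = 9.2e-07). The ratio of HSP90AA1 to HSP90AB1 reads within a library, which needs no scaling, was 0.503, 0.503 and 0.463 after ALKBH5 siRNA, against 0.613, 0.600 and 0.528 after scrambled siRNA. The ratios did not overlap, and their exact 2-sided permutation p was 0.1, which is as low as this design can go (adjusted p = 0.15 over 3 ratios). For HSPA1A over HSPA8 the ratio was 0.0406, 0.0351 and 0.0290 after ALKBH5 siRNA, against 0.0340, 0.0354 and 0.0391 after scrambled siRNA. These overlapped (exact permutation p = 0.8), and their log2 difference was −0.06 with all libraries and 0.064 without ALKBH5 siRNA replicate 3. Transcripts of other genes share 18.2% of the 50-base stretches of HSP90AA1 and 18.8% of those of HSP90AB1, HSP90AA2P and HSP90AB3P being the genes that share the most with each.

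HSPB1 encodes HSP27, a small heat shock protein that binds unfolding proteins without ATP and also acts on actin filaments. It had 406, 324 and 361 CPM in the ALKBH5 siRNA libraries, against 335, 378 and 363 CPM in the scrambled libraries. The highest and the lowest of the 6 values both belonged to ALKBH5 siRNA libraries, so the groups overlapped fully. Its log2 fold change of 0.02 had a 95% interval of −0.18 to 0.22 (SE 0.09, adjusted p = 0.85). That interval does not reach the log2 fold change of any of the other 9 genes, of which −0.69 for DNAJB1 was the nearest. The difference between HSPB1 and those genes was not tested. HSPB1 made up 13.0%, 9.64% and 11.2% of the reads of the 10 genes after ALKBH5 siRNA, against 5.84%, 6.29% and 5.57% after scrambled siRNA. Together the 10 genes took 0.310%, 0.323% and 0.315% of all reads in genes after ALKBH5 siRNA, against 0.589%, 0.615% and 0.662% after scrambled siRNA.

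The mitochondrial pair fell as well. HSPD1, the HSP60 subunit of the folding chamber, had 194, 236 and 220 CPM in the ALKBH5 siRNA libraries, against 344, 361 and 454 CPM in the scrambled libraries. Scrambled replicate 3 was the highest by far, and the other scrambled libraries still lay above all ALKBH5 siRNA libraries. Its level was 1.78-fold lower (a log2 fold change of −0.83 with SE 0.11, adjusted p = 5.7e-05). HSPE1, the HSP10 lid, had 21.0, 17.5 and 21.4 CPM after ALKBH5 siRNA, against 45.8, 58.1 and 56.9 CPM after scrambled siRNA. No ALKBH5 siRNA library came near the lowest scrambled one, and the fall of 2.68-fold (log2 fold change −1.42, SE 0.12, adjusted p = 1.1e-06) was the largest of the 10 genes. HSPD1 reads per HSPE1 read numbered 9.21, 13.5 and 10.3 after ALKBH5 siRNA, against 7.52, 6.22 and 7.98 after scrambled siRNA. The ratios did not overlap (exact 2-sided permutation p = 0.1, the smallest possible, adjusted p = 0.15 over 3 ratios). Counts of both are uncertain: 25.0% and 52.9% of the 50-base stretches of HSPD1 and HSPE1 occur in transcripts of other genes, among them pseudogenes and, where the pair overlaps on opposite strands, each other. A read-through gene of HSPE1 was listed with no read in any library. The counting sets apart reads that fit several listed genes and gives them to none of these. The absence therefore does not show that the read-through is silent, and reads of HSPE1 in shared stretches may be missing.

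Between genes, levels were compared per kilobase of the principal transcript of GENCODE 29. After ALKBH5 siRNA the order of mean CPM per kilobase was HSPB1 (400.1), HSP90AB1 (347), HSPA8 (322), HSP90AA1 (135), HSPD1 (88.2), DNAJB1 (66.8), HSF1 (49.6), HSPH1 (33.5), HSPE1 (21.0) and HSPA1A (11.1). After scrambled siRNA it was HSP90AB1 (697), HSPA8 (614), HSPB1 (394.5), HSP90AA1 (319), HSPD1 (157), DNAJB1 (108), HSF1 (96.2), HSPH1 (62.6), HSPE1 (56.4) and HSPA1A (22.1). HSPB1 thus came first after ALKBH5 siRNA and behind HSP90AB1 and HSPA8 after scrambled siRNA. Neighbours whose libraries overlapped were HSPB1 with HSP90AB1 and HSP90AB1 with HSPA8 after ALKBH5 siRNA, and HSP90AB1 with HSPA8 and HSPH1 with HSPE1 after scrambled siRNA. When the unshared 50-base stretches served as length, an alternative chosen after seeing the data, HSPA1A stood at 41.14 CPM per kilobase after ALKBH5 siRNA and 82.1 after scrambled siRNA, and HSPE1 at 47.1 and 126. HSPH1 then came last in both groups, with 33.9 and 63.2. After scrambled siRNA HSPE1 also passed DNAJB1 (113) and HSF1 (103). The order below HSPD1 after scrambled siRNA, and below HSF1 after ALKBH5 siRNA, therefore depends on how shared sequence is treated.

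**Figure D3:**
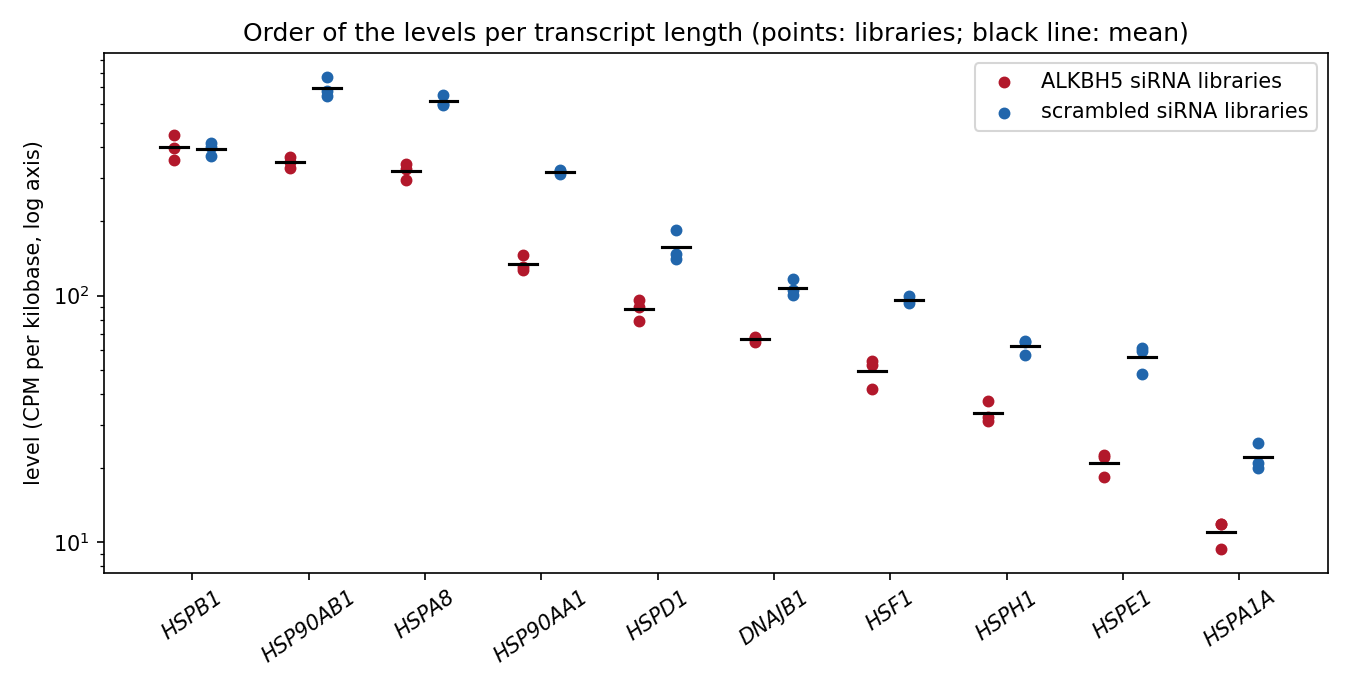
Level per kilobase of transcript on a log axis for the 10 genes, ordered by their mean after ALKBH5 siRNA, with ALKBH5 siRNA libraries (red) left of scrambled siRNA libraries (blue) and means as black lines. HSPB1 leads after ALKBH5 siRNA with 400.1 CPM per kilobase and follows HSP90AB1 and HSPA8 after scrambled siRNA, where HSP90AB1 leads with 697.

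Among 114 further genes of the chaperone network in 10 lists by role, 103 were tested. Of these 52 fell (50.5%) and 17 rose (16.5%), beside 30.8% each way over all tested genes, and their median log2 fold change was −0.25. Among other heat shock factors and regulators of HSF1, 2 of 6 tested genes fell and 2 rose, with a median of 0.03. HSF2, which can pair with HSF1, averaged 26.4 ± 2.43 CPM after ALKBH5 siRNA and 40.0 ± 0.75 CPM after scrambled siRNA (log2 fold change −0.60, adjusted p = 0.00025). SIRT1, a deacetylase that prolongs DNA binding by HSF1, fell 1.44-fold, while HSBP1, which binds HSF1 and restrains it, rose 1.35-fold. HSF4, outside the naming rule and named here after its value was seen, rose 2.04-fold at low levels.

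Of 10 further HSF1 targets tested, 4 fell (40%) and 0 rose in edgeR, DESeq2 or limma-voom, beside 30.8% each way over all tested genes in edgeR. In edgeR 1 was higher at an unadjusted p under 0.05, and the median was −0.09. With the replicate block 2 were called higher, and 1 was without scrambled replicate 3 or without ALKBH5 siRNA replicate 1. BAG3, also a target of HSF1, is not on this list but among the partners of HSP70. It was called higher (log2 fold change 0.26, edgeR adjusted p = 0.029), a call that 5 of 14 alternatives lost. HSPA1B, given above, was one of the 4 listed targets that fell. CRYAB, the small heat shock protein alpha-B crystallin, averaged 16.3 ± 3.63 CPM after ALKBH5 siRNA and 56.0 ± 5.79 CPM after scrambled siRNA (log2 fold change −1.78, adjusted p = 2.1e-06). CACYBP fell 2.06-fold, and CHORDC1, a partner of HSP90, fell 1.81-fold and was named after its value was seen. Among other small heat shock proteins 3 of 4 tested fell and 0 rose in edgeR, DESeq2 or limma-voom, also 0 at an unadjusted p under 0.05 in edgeR, with a median of −0.61. HSPB6 averaged 0.275 CPM after ALKBH5 siRNA and 1.21 CPM after scrambled siRNA, and HSPB2 1.01 and 1.91 CPM. The call of HSPB2 (adjusted p = 0.021) was lost in DESeq2 and without scrambled replicate 1 or ALKBH5 siRNA replicate 2, and that of HSPB8 (log2 fold change −0.30, adjusted p = 0.033) without scrambled replicate 2 or ALKBH5 siRNA replicate 1, with adjusted p-values over all alternatives of 0.0093 to 0.11 and 0.0081 to 0.14.

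Of the remaining HSP70 and HSP110 genes 5 were tested, of which 3 rose (60%) and 1 fell (20%), with a median of 0.93. The share over all tested genes was 30.8% each way. HSPA4, an HSP110 protein like HSPH1, was the one that fell, with 252 ± 10.0 CPM after ALKBH5 siRNA and 511 ± 25.8 CPM after scrambled siRNA (log2 fold change −1.02, adjusted p = 2.8e-07). HSPA12A rose 2.13-fold and HSPA14, a ribosome-bound HSP70 that was named after its value was seen, 1.91-fold. HSPA2, known for its role in sperm formation, averaged 1.28 CPM after ALKBH5 siRNA and 0.170 CPM after scrambled siRNA (adjusted p = 5.2e-05).

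J-domain proteins fell in 10 of 17 cases (58.8%) and rose in 3 (17.6%), with a median of −0.46. Over all tested genes the shares were 30.8% each way. DNAJA1, a cytosolic partner of HSPA8, averaged 189 ± 21.2 CPM after ALKBH5 siRNA and 434 ± 15.7 CPM after scrambled siRNA (log2 fold change −1.20, adjusted p = 3.0e-07). DNAJC21, which acts in ribosome assembly, fell 3.30-fold and DNAJC8, linked to splicing, 1.76-fold. DNAJC6, which serves clathrin uncoating, rose 2.07-fold, DNAJC13 1.51-fold and DNAJB14 1.31-fold. Of 9 exchange factors and other partners of HSP70 3 fell and 3 rose (33.3% each way). The median was −0.14, and the shares were near those of all tested genes. Without scaling factors 5 were lower and 1 higher, and without scrambled replicate 1 or 3 again 1 was higher. BAG1, the third gene called higher beside BAG3 and BAG4, lost its call in 4 of 14 alternatives (adjusted p-values of 0.0095 to 0.10) and is named after its value was seen. STUB1, a ubiquitin ligase that marks chaperone clients, and ST13 fell 1.86-fold and 1.73-fold, while BAG4 rose 2.31-fold. BAG3, itself a target of HSF1 that couples HSP70 to autophagy, averaged 55.7 ± 5.09 CPM after ALKBH5 siRNA and 46.7 ± 0.17 CPM after scrambled siRNA (log2 fold change 0.26, adjusted p = 0.029). Its call was lost without scaling factors, without any one of the 3 scrambled libraries and without ALKBH5 siRNA replicate 3, with adjusted p-values of 0.016 to 0.11 over all alternatives.

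Co-chaperones of HSP90 fell in 12 of 18 cases (66.7%) and rose in 1 (5.56%), with a median of −0.84. All tested genes stood at 30.8% each way. The immunophilin FKBP4 averaged 174 ± 6.17 CPM after ALKBH5 siRNA and 389 ± 18.8 CPM after scrambled siRNA (log2 fold change −1.16, adjusted p = 1.0e-07), and its relative FKBP5 fell 2.48-fold. NUDC fell 2.22-fold, and STIP1, the adaptor that passes clients from HSP70 to HSP90, 1.73-fold. TOMM70A, the mitochondrial import receptor that docks both chaperones, was the single gene that rose (1.22-fold, adjusted p = 0.0066), and 2 were called higher without ALKBH5 siRNA replicate 2.

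The TRiC chaperonin, the ring that folds actin and tubulin, and prefoldin, which delivers to it, shared a list. In it 9 of 14 tested genes fell (64.3%) and 2 rose (14.3%), beside 30.8% each way over all tested genes. The median was −0.55. TCP1 averaged 115 ± 5.19 CPM after ALKBH5 siRNA and 322 ± 15.1 CPM after scrambled siRNA (log2 fold change −1.49, adjusted p = 2.1e-08). CCT6A fell 2.05-fold and CCT7 1.92-fold. Both genes that rose, PFDN5 (1.23-fold) and VBP1 (1.34-fold), belong to prefoldin.

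Of the other chaperones of the mitochondrion 4 of 12 fell (33.3%) and 2 rose (16.7%), with a median of −0.07. Over all tested genes 30.8% were called each way, so the share that fell was near that of all genes. The lower count was 2 without scrambled replicate 2 and 1 without scrambled replicate 3 or ALKBH5 siRNA replicate 1. Besides HSPA9, TRAP1 and CLPB, named after their values were seen, lost their calls in 2 and 4 of 14 alternatives. HSPA9, the mitochondrial HSP70, averaged 333 ± 33.9 CPM after ALKBH5 siRNA and 397 ± 32.9 CPM after scrambled siRNA (log2 fold change −0.25, adjusted p = 0.031). This call was lost without scrambled replicate 2, scrambled replicate 3 or ALKBH5 siRNA replicate 1, with adjusted p-values of 0.0047 to 0.13 over all alternatives. Its exchange factor GRPEL2 fell 1.45-fold, whereas the other exchange factor, GRPEL1, and the J-domain partner DNAJA3 rose 1.37-fold and 1.39-fold. Of 8 mitochondrial proteases 4 fell (50%) and 1 rose (12.5%), with a median of −0.26. YME1L1, a protease of the inner membrane, averaged 62.8 ± 5.24 CPM after ALKBH5 siRNA and 194 ± 14.8 CPM after scrambled siRNA (log2 fold change −1.63, adjusted p = 3.4e-08). LONP1 and OMA1 fell 1.5-fold and 1.48-fold. HTRA2 was the one that rose (1.15-fold, adjusted p = 0.047), and 9 of 14 alternatives lost that call (adjusted p-values of 0.034 to 0.15).

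**Figure D4:**
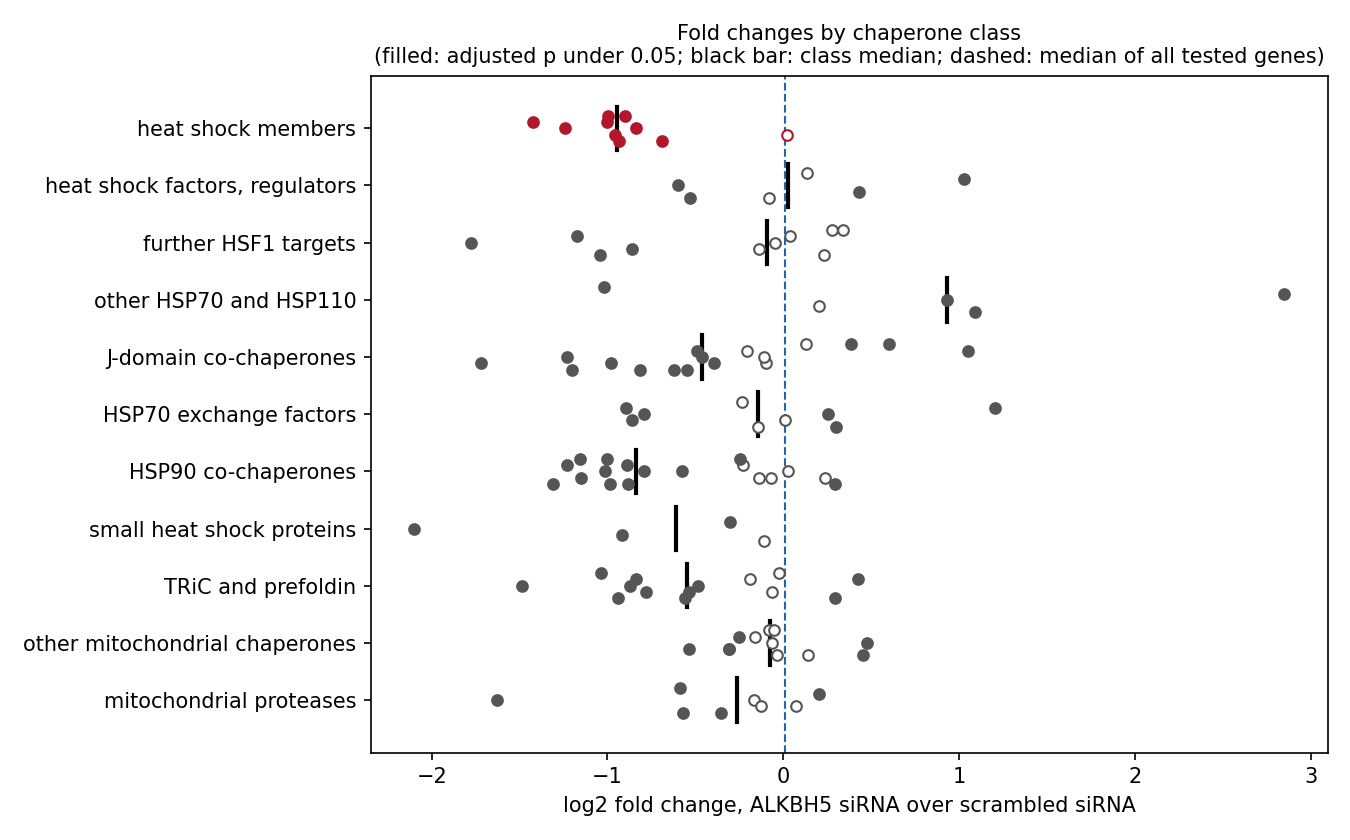
Log2 fold change of ALKBH5 siRNA over scrambled siRNA for every tested gene of the 10 heat shock genes (red, top) and of the 10 further lists (grey), with filled points for an adjusted p under 0.05, class medians as black bars and the median of all tested genes as a dashed line. The heat shock genes centre on −0.94 and the HSP90 co-chaperones on −0.84, while the other HSP70 and HSP110 genes centre on 0.93.

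HSPE1, the gene with the largest fall, was also set against all tested genes outside the 10 by the distance between centred log2 CPM profiles over the 6 libraries. The nearest were PLCB2 (distance 0.154), the DNA ligase gene LIG1 (0.156) and ATP8B3 (0.189), with log2 fold changes of −1.34, −1.43 and −1.31. The 6 libraries form 2 groups, so genes with a fall of like size lie near each other by construction.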

How the data were processed

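The data are 6 RNA-seq libraries of transfected U2OS cells, 3 per group by their labels. The authors deposited whole-number counts of reads for each gene symbol. CASAVA 1.8.2, HTSeq, SAMtools, TopHat2 and build hg19 are named, per the submitters' processing notes. Neither the annotation nor the strand setting of counting is given there, so reads of overlapping genes cannot be separated. Library sizes and tests leave out HTSeq's summary entries. The summary entries that were left out include reads with more than 1 placement. Relative to uniquely and multiply placed entries together, these were 33.0% ± 0.18 after ALKBH5 siRNA and 33.3% ± 0.33 after scrambled siRNA (SD, n = 3 each). The labels do not say whether replicates were separate cultures, so p-values measure the spread between libraries, which may be technical. Within a group, pairs of libraries gave a chi-square of 6.21 to 17.2 for each degree of freedom, so none repeats another.

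Testing used edgeR 4.0.16 under R 4.3.3 (filterByExpr, TMM, robust glmQLFit and glmQLFTest, 2-sided, 14504 genes, Benjamini-Hochberg adjustment over all of them, threshold 0.05). A positive fold change means higher after ALKBH5 siRNA. Alternatives were DESeq2 1.42.0, limma-voom (limma 3.58.1), RLE scaling, no scaling factor, no filter, a minimum of 1 CPM in 3 libraries, no robust moderation, a block for the replicate number, and leaving out single libraries. The test was checked on simulated counts with known changes. Far fewer genes changed there than were called here, so that check does not cover changes this widespread. Promoters came from RefSeq (GRCh38.p14) and transcripts from GENCODE 29, matched by symbol.

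The 10 genes and the 10 lists were chosen with earlier results of these data known, and no list was tested as a set. Genes of the lists were named by rule: the up to 3 called genes with the smallest adjusted p, called genes against the direction of their list, and HSPA1B, HSF2, BAG3, STIP1 and HSPA9. For the called gene with the largest fall, the 3 nearest profiles were named; none of the 10 genes rose.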

Additional observations from a re-analysis of the deposited data

Results flagged for a closer look

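Uniquely placed reads assigned to no gene enter none of the comparisons. They were 17.9% ± 0.66 of all uniquely placed reads after ALKBH5 siRNA and 15.3% ± 0.23 after scrambled siRNA (SD, n = 3 each). This signal outside the gene counts was above the level of the control libraries. Whether these reads lie between genes, in introns or on the opposite strand is not recorded.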

How the results depend on the processing

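The 9 lower and 0 higher heat shock genes were the counts under each of the 14 alternatives, with adjusted p-values of at most 0.00038 (HSPD1). Numbers of lower and higher genes among the further chaperones and among all genes, and the log2 fold change of ALKBH5, kept within 1.5 times or on the same side of the threshold. HSPB1 never passed (adjusted p-values of 0.32 to 0.90), and its log2 fold change took a negative sign without scaling factors (−0.0432), without scrambled replicate 1 (−0.0291) and without ALKBH5 siRNA replicate 1 (−0.0618); single libraries left out gave −0.0618 to 0.1003, and the cause was not tested. The log2 difference of the HSPA1A to HSPA8 ratio ranged from −0.18 to 0.064 when single libraries were left out, and the sign turned without ALKBH5 siRNA replicate 3 (0.064); the cause was not tested. Deviations of same-numbered libraries correlated at 0.33, 0.06 and 0.35, and those of differently numbered libraries at −0.37 to 0.08. For scrambled replicate 2 the highest value was with ALKBH5 siRNA replicate 1 (0.08). Whether replicate numbers pair the libraries was not tested, and the main fit used no pairing. With the replicate number as a block, 9 heat shock genes were lower, 54 further chaperones lower and 20 higher, and 4895 genes lower and 4865 higher over all, against 4466 and 4471 without it. Depth limits the genes with few reads, such as HSPA6, rather than the 10 described.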
